A study of Arabidopsis thaliana with 34 samples.

Results

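The interaction of the vrn2-5 and prt6-1 alleles was examined in whole Arabidopsis thaliana seedlings, using 12 mRNA libraries of the 34 samples in the series. The 12 libraries are 3 each of the vrn2-5 prt6-1 double mutant, prt6-1, vrn2-5 and the parental accession Col-0. All 12 columns of the seedling table were used, with DM read as the double mutant and WT as Col-0. The other samples are rosette mRNA of vrn2-5 pif4-2 and pif4-2 plants, VRN2-YFP immunoprecipitations and H3K27me3 immunoprecipitations with their inputs. The sources used here do not give the plants' age, light, temperature or seed source. The labels do not say that replicates were grown separately, so p-values measure the spread between these libraries, which may be technical.

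VRN2 is a zinc-finger subunit of Polycomb repressive complex 2, which places the H3K27me3 mark on histone H3 and is known for keeping genes silent. PRT6 is an E3 ligase of the N-degron pathway, which marks proteins for destruction by their N-terminal residue and removes both VRN2 and the transcription factors that switch on hypoxia genes. The value reported for each gene is its interaction, the difference between vrn2-5 prt6-1 and prt6-1 minus the difference between vrn2-5 and Col-0, on the log2 scale. A value of 0 means that the vrn2-5 allele went with the same fold in both backgrounds. A positive value means that the difference was more positive where prt6-1 was also present.

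The deposited values are normalized reads, and 1 read was worth between 0.205 and 5.00 of them. Of the 12 libraries, 6 held between 9232780 and 27853214 reads and 6 held between 1208836 and 1786079 reads. The deep libraries were replicates 1 and 3 of vrn2-5 prt6-1, replicates 2 and 3 of prt6-1, replicate 1 of vrn2-5 and replicate 3 of Col-0. Between 131 and 172 genes in each shallow library were at 0 although the other deep libraries predicted at least 10 reads, against 6 to 46 genes in each deep library. Seedling tissue was checked with 22 photosynthesis genes, which took 11.3% to 15.4% of the normalized reads in vrn2-5 prt6-1, 12.5% to 16.7% in prt6-1, 12.5% to 17.63% in vrn2-5 and 11.2% to 19.2% in Col-0.

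VRN2 itself was measured at 62.9, 36.7 and 76.8 normalized reads in vrn2-5 prt6-1, 118, 135 and 130 in prt6-1, 50.1, 45.0 and 50.3 in vrn2-5, and 116, 163 and 135 in Col-0. Every library with the vrn2-5 allele was below every library without it, and the interaction of 0.30 (SE 0.342, 95% interval -0.46 to 1.05) spanned 0. PRT6 had 122, 59.6 and 94.4 normalized reads in vrn2-5 prt6-1, 49.6, 142 and 93.8 in prt6-1, 10.7, 0 and 43.6 in vrn2-5, and 0, 46.0 and 57.7 in Col-0. PRT6 reads were therefore not lower in the libraries labelled prt6-1. Counts per gene do not show which part of the gene the reads come from, so this gene does not check the prt6-1 label, and genotypes are named below as the labels give them. PGB1, a haemoglobin gene of the hypoxia response, separated them: it had 2542, 2210 and 2892 normalized reads in vrn2-5 prt6-1 and 1281, 1859 and 2775 in prt6-1. The values were 20.2, 34.98 and 70.4 in vrn2-5 and 41.2, 53.1 and 60.3 in Col-0.

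MRD1 was the only gene to pass the threshold for an interaction, 1 gene or 0.00595% of the 16820 genes tested (limma, Benjamini-Hochberg adjusted p under 0.05). An unadjusted p under 0.05 was reached by 225 genes (1.34%), of which 143 were positive (0.85%) and 82 negative (0.488%). With no interaction at any gene, uniform p-values would put a share of 0.05 of all genes there. The 225 are fewer than that, so they are not read as a set rich in interactions. The number at an unadjusted p under 0.05 was 128 without prt6-1 replicate 1, 144 without vrn2-5 replicate 2 and 149 without vrn2-5 prt6-1 replicate 2. It was 362 without vrn2-5 replicate 1, 470 without Col-0 replicate 3 and 475 without vrn2-5 replicate 3. The excess of positive values turned to 202 positive and 268 negative without Col-0 replicate 3, and to 127 and 140 without vrn2-5 prt6-1 replicate 1. edgeR's quasi-likelihood test on recovered reads called 0 genes, and 162 genes had an unadjusted p under 0.05 in that test (0.963%). DESeq2, with 109 at an unadjusted p under 0.05 (0.59%), called 6 genes, or 0.0327% of 18368. They were MRD1, AT3G29633, QQS, PTR1, AT1G03220 and AT3G18535. The limma count ranged from 0 to 5 when single libraries were left out: dropping vrn2-5 replicate 1 gave 5, dropping Col-0 replicate 3 gave 4, dropping vrn2-5 replicate 3 or else Col-0 replicate 2 gave 2, and dropping Col-0 replicate 1 gave 0.

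The estimates were centred on no interaction, but most were imprecise. Over all 16820 genes the median interaction was 0.01 and 51.3% were positive. The median 95% half-width was 0.89 on the log2 scale, 1.52 for genes with a mean of 10 to 30 normalized reads and 0.66 for means of 100 to 1000. The 95% interval lay within 1 log2 unit of 0 for 6910 genes (41.1%). For the remaining genes, the 95% interval reached beyond 1 log2 unit from 0 in at least 1 direction.

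**Figure D1:**
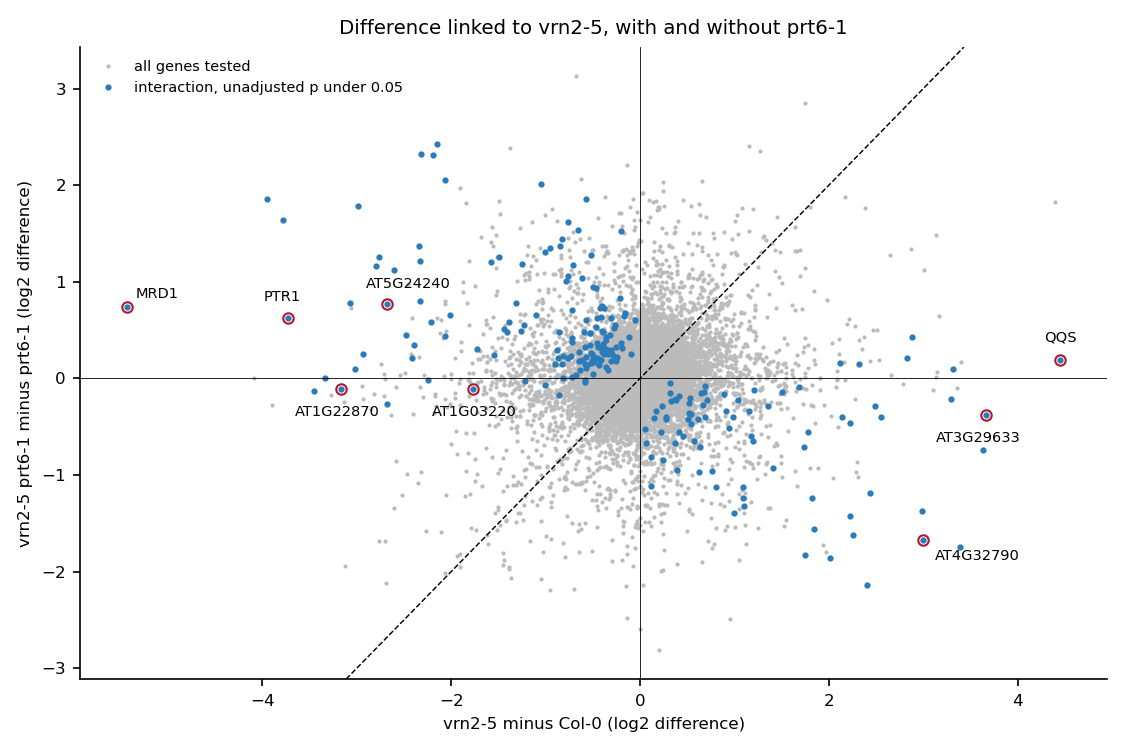
Each point is 1 of 16820 genes, with the vrn2-5 minus Col-0 log2 difference across and the vrn2-5 prt6-1 minus prt6-1 log2 difference upwards. The interaction is the vertical distance from the dashed line of equal differences: MRD1, PTR1 and QQS lie far out along the horizontal axis and near 0 on the vertical one.

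The component contrasts were called as follows. The limma fit called 0 genes between vrn2-5 prt6-1 and prt6-1, with 191 at an unadjusted p under 0.05 (1.14%). It called 4 between vrn2-5 and Col-0 (0.0238%), namely MRD1, AT3G29633, AT1G03220 and QQS. The 4 became 23 without Col-0 replicate 3, 17 without vrn2-5 replicate 1, 2 without vrn2-5 replicate 2, 1 without Col-0 replicate 1 and 11 with DESeq2. It called 35 between vrn2-5 prt6-1 and vrn2-5 (0.208%) and 31 between prt6-1 and Col-0 (0.184%), where DESeq2 called 63 and 55, and where the 31 became 51 without Col-0 replicate 3. All 4 contrasts share libraries with the interaction, so their values are its components and not separate evidence.

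In a first group of genes, Col-0 stood apart from all 3 mutant genotypes. MRD1, named for its lower level in a methionine-overaccumulating mutant, had 1.11, 13.8 and 4.33 normalized reads in vrn2-5 prt6-1, 0, 1.64 and 1.83 in prt6-1, 0.533, 0 and 0 in vrn2-5, and 195, 212 and 251 in Col-0. The 3 Col-0 libraries were high and all 9 mutant libraries were low, with no overlap. MRD1 fell by 5.43 on the log2 scale in vrn2-5 against Col-0 (limma adjusted p = 0.000988), whereas the difference between vrn2-5 prt6-1 and prt6-1 was 0.75. Its interaction was 6.18 (SE 0.591, 95% interval 4.87 to 7.48, limma adjusted p = 0.00895). MRD1 was already near 0 in prt6-1, so a further fall with vrn2-5 could not be measured there.

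The MRD1 reads behind those values numbered 24 in vrn2-5 prt6-1, 11 in prt6-1 and 2 in vrn2-5, against 982 in Col-0. With reads and depth pooled over the libraries of a genotype, so that deep libraries weigh most, vrn2-5 prt6-1 was 85.9-fold below Col-0 (exact 95% interval 57.4 to 134.8), prt6-1 151-fold (83.8 to 303) and vrn2-5 520-fold (144 to 4303). The intervals cover counting error only. Means of normalized reads, which weight libraries equally, gave folds of 34.3, 190 and 1237 in the same order, and the first of these lies outside its counting interval. The libraries numbered 1, 2 and 3 gave interactions of 5.46, 6.94 and 6.13 when taken alone. The MRD1 value was positive in all 25 other settings tried, and 5 of them ended the call, among them edgeR (adjusted p = 0.0532) and the fit without Col-0 replicate 1 (limma adjusted p = 0.0657).

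QQS, an orphan gene known for affecting starch content and for levels that vary among Arabidopsis lines, went the other way. It had 280, 312 and 271 normalized reads in vrn2-5 prt6-1, 301, 194 and 269 in prt6-1, 256, 380 and 365 in vrn2-5, and 15, 0 and 30.3 in Col-0. Here Col-0 was low and the 9 mutant libraries were high. The interaction was -4.26 (SE 0.772, 95% interval -5.96 to -2.56), with a limma adjusted p of 0.639 and a DESeq2 adjusted p of 3.25e-06. QQS was called higher in vrn2-5 than in Col-0 (log2 difference 4.45, limma adjusted p = 0.0249), beside a difference of 0.19 between vrn2-5 prt6-1 and prt6-1.

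AT3G29633 (TAIR10 chromosome 3, 11452509 to 11453528, minus strand) had 64.0, 36.7 and 93.9 normalized reads in vrn2-5 prt6-1, 61.0, 84.8 and 99.3 in prt6-1, 68.2, 84.9 and 33.5 in vrn2-5, and 0 in all 3 Col-0 libraries. The deep Col-0 library was at 0 as well as the shallow ones. With 3 reads in all put in place of 0 for Col-0, the level would be 86.8-fold higher in vrn2-5 prt6-1, 109-fold in prt6-1 and 83.2-fold in vrn2-5. These folds are approximate: they allow for counting only and rest mostly on the depth of the deep Col-0 library. The fitted interaction was -4.04 (SE 0.55), with a limma adjusted p of 0.133 and a DESeq2 adjusted p of 4.34e-07. AT3G18535 was also at 0 in every Col-0 library, with 67.1, 50.4 and 72.5 normalized reads in vrn2-5 prt6-1, 107, 77.6 and 71.9 in prt6-1, and 38.9, 0 and 111 in vrn2-5. Its interaction of -2.95 (SE 1.204) had a limma adjusted p of 1.00 and a DESeq2 adjusted p of 0.000813.

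AT5G24240, a phosphatidylinositol 4-kinase family gene, resembled MRD1 at a lower level. It had 1.77, 9.17 and 5.14 normalized reads in vrn2-5 prt6-1, 0, 2.87 and 0 in prt6-1, 4.79, 0 and 6.70 in vrn2-5, and 29.99, 70.8 and 51.7 in Col-0. Col-0 was above all other libraries, and the interaction was 3.45 (SE 0.699, 95% interval 1.90 to 4.99), which did not pass the adjusted threshold. The receptor-like kinase gene CRK42 had 50.7, 91.7 and 44.1 normalized reads in vrn2-5 prt6-1, 118, 80.1 and 34.1 in prt6-1, 97.5, 94.9 and 40.2 in vrn2-5, and 0, 0 and 14.4 in Col-0, the lowest genotype. Its interaction was -3.51 (SE 0.858, 95% interval -5.40 to -1.62). With a single genotype standing apart, a difference between the Col-0 plants and the other lines and a dependence of one allele on the other cannot be told apart in these libraries.

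**Figure D2:**
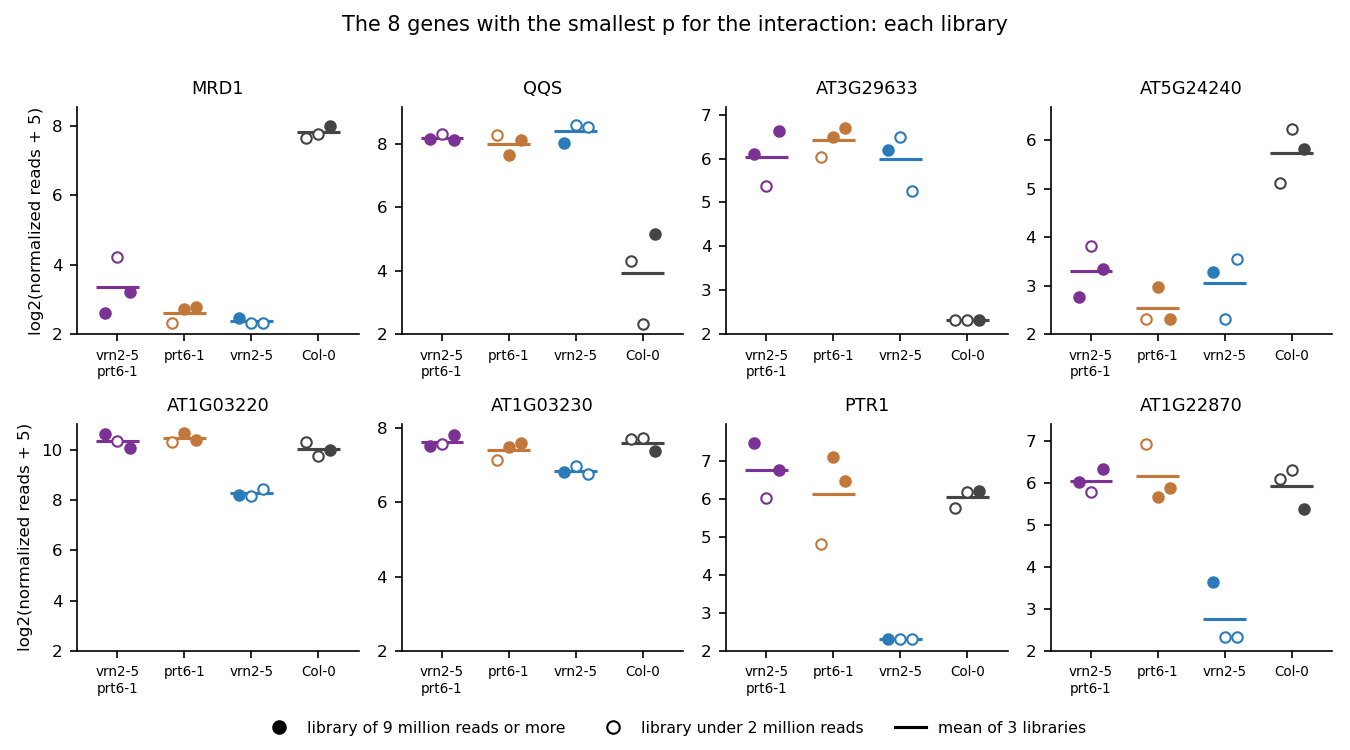
Level of 8 genes in each of the 12 seedling libraries as log2(normalized reads + 5), by genotype, with filled points for deep libraries, open points for shallow ones and a line at the mean of 3. Col-0 is apart in the upper row (MRD1, QQS, AT3G29633, AT5G24240) and vrn2-5 in the lower row (AT1G03220, AT1G03230, PTR1, AT1G22870). Vertical scales differ between panels.

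In a second group, vrn2-5 alone stood apart while vrn2-5 prt6-1 was near prt6-1 and Col-0. A difference particular to the vrn2-5 plants and a dependence of one allele on the other cannot be told apart here either. AT1G03220, an aspartyl protease family gene (TAIR10 chromosome 1, 786832 to 788722, plus strand), had 1573, 1306 and 1070 normalized reads in vrn2-5 prt6-1, 1266, 1630 and 1328 in prt6-1, 294, 280 and 342 in vrn2-5, and 1286, 871 and 1023 in Col-0. All 3 vrn2-5 libraries, deep and shallow, were below the other 9. AT1G03220 fell by 1.77 on the log2 scale in vrn2-5 against Col-0 (limma adjusted p = 0.00833), and the difference between vrn2-5 prt6-1 and prt6-1 was -0.11. The interaction was 1.66 (SE 0.262, 95% interval 1.08 to 2.24), with a limma adjusted p of 0.325 and a DESeq2 adjusted p of 4.44e-05. On the linear scale it was 663 normalized reads (SE 221).

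AT1G03230, the next gene on the chromosome in RefSeq's order (TAIR10 chromosome 1, 789820 to 791689, plus strand) and of the same protease family, was likewise lowest in vrn2-5, at a lower level. It had 178, 183 and 221 normalized reads in vrn2-5 prt6-1, 137, 175 and 189 in prt6-1, 107, 120 and 104 in vrn2-5, and 202, 209 and 162 in Col-0. Its interaction was 0.97 (SE 0.238, 95% interval 0.45 to 1.499), and vrn2-5 did not overlap the other genotypes. The 2 genes belong to one family, so reads that fit both may have been divided between them by the authors' counting. AT1G03210, on the other side of AT1G03220, had an interaction of 0.18 (SE 0.547).

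PTR1, a plasma membrane transporter of di- and tripeptides (TAIR10 chromosome 3, 20045603 to 20048745, minus strand), had 173, 59.6 and 104 normalized reads in vrn2-5 prt6-1, 22.9, 133 and 83.4 in prt6-1, 0 in all 3 vrn2-5 libraries, and 48.7, 67.3 and 69.6 in Col-0. With 3 reads in all put in place of 0 for vrn2-5, PTR1 would be 159-fold higher in vrn2-5 prt6-1, 113-fold in prt6-1 and 87.7-fold in Col-0. These folds are approximate in the same way. The fitted interaction was 4.35 (SE 0.755), with a limma adjusted p of 0.557 and a DESeq2 adjusted p of 3.25e-06. Its immediate neighbours had interactions of -0.48 (AT3G54130, SE 0.366) and 0.76 (AT3G54150, SE 1.29).

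AT1G22870, of the SCY1-like kinase family, had 60.7, 50.4 and 76.3 normalized reads in vrn2-5 prt6-1, 118, 45.8 and 54.2 in prt6-1, 7.46, 0 and 0 in vrn2-5, and 63.7, 74.4 and 36.7 in Col-0. Its interaction was 3.06 (SE 0.641, 95% interval 1.65 to 4.47). The deep vrn2-5 library was the highest of the 3 vrn2-5 libraries and was still below all others. For the histone H2A.Z gene HTA8 the deep vrn2-5 library was not apart: the gene had 23.5, 32.1 and 18.9 normalized reads in vrn2-5 prt6-1, 11.4, 16.4 and 13.4 in prt6-1, 13.3, 0 and 0 in vrn2-5, and 29.99, 38.9 and 14.7 in Col-0. The HTA8 interaction of 2.67 (SE 0.74) was 0.50 when computed from the deep libraries alone, while that of AT1G22870 was 2.16.

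Smaller differences were seen at ARAD2 and AN3. ARAD2, a putative arabinosyltransferase gene, had 70.5, 77.9 and 82.5 normalized reads in vrn2-5 prt6-1, 57.2, 54.0 and 64.6 in prt6-1, 49.5, 49.97 and 57.0 in vrn2-5, and 71.2, 77.9 and 71.0 in Col-0. Both single mutants were lower than Col-0 in every library and the double mutant was at the Col-0 level, with an interaction of 0.82 (SE 0.237, 95% interval 0.30 to 1.35). AN3, a coactivator that promotes leaf cell proliferation, had 52.1, 64.2 and 87.9 in vrn2-5 prt6-1, 91.5, 79.5 and 74.9 in prt6-1, 119, 140 and 137 in vrn2-5, and 90.0, 88.5 and 67.3 in Col-0. It was highest in vrn2-5 without overlap, and its interaction was -0.94 (SE 0.296, 95% interval -1.60 to -0.29). Neither gene passed the adjusted threshold.

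The double mutant stood apart for AT3G15160 and GA20OX1. AT3G15160 had 107, 115 and 116 normalized reads in vrn2-5 prt6-1, 72.5, 73.3 and 67.0 in prt6-1, 78.3, 65.0 and 43.6 in vrn2-5, and 71.2, 88.5 and 88.0 in Col-0, with an interaction of 1.04 (SE 0.294, 95% interval 0.39 to 1.69). GA20OX1, an oxidase of gibberellin synthesis, had 17.5, 27.5 and 17.9 in vrn2-5 prt6-1, 7.63, 10.3 and 0 in prt6-1, 6.92, 5.00 and 0 in vrn2-5, and 7.498, 17.7 and 7.22 in Col-0. Its interaction was 2.22 (SE 0.754, 95% interval 0.56 to 3.88), and 1 Col-0 library lay within the double mutant's range. Over the 225 genes with an unadjusted p under 0.05, the genotype farthest from the other 3 was vrn2-5 for 87 (38.7%, against 31.4% of all genes), Col-0 for 72 (32%, against 24.1%), vrn2-5 prt6-1 for 41 (18.22%, against 22.7%) and prt6-1 for 25 (11.1%, against 21.8%). Most libraries of vrn2-5 and Col-0 were shallow, and most of vrn2-5 prt6-1 and prt6-1 were deep. The part of depth in these shares was not tested.

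Of the genes called for prt6-1, 40 were called in at least 1 of the 2 prt6-1 contrasts, and 8 of them (20%, against 1.34% of all genes) had an unadjusted limma p under 0.05 for the interaction. Their interactions ran from -4.26 to 6.18 with a median of 0.29. All 8 were among the 14 genes called in a single contrast, MRD1, QQS, AT3G29633 and AT1G03220 included. The other 26 were called in both, 25 of them higher and 1 lower. A call in each background selects against an interaction and a call in 1 selects for it, so these counts are a description. The interactions of the 25 ran from -0.44 to 0.83 with a median of 0.21, and 0 had an unadjusted limma p under 0.05. Their half-widths ran from 0.36 to 1.92 with the lower gene included, so interactions within those widths were not bounded away. These contrasts share all their libraries with the interaction.

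The 26 include genes of oxygen sensing and fermentation. PCO1, a cysteine oxidase that starts N-degron destruction, had 963, 931 and 1010 normalized reads in vrn2-5 prt6-1 and 934, 840 and 1104 in prt6-1. Its other libraries had 25.6, 39.97 and 26.8 in vrn2-5 and 15, 31.9 and 17.61 in Col-0, and its interaction was -0.44 (SE 0.334). ADH1, the alcohol dehydrogenase of fermentation, averaged 884 in vrn2-5 prt6-1, 962 in prt6-1, 28.0 in vrn2-5 and 29.7 in Col-0, with an interaction of -0.02 (SE 0.768). PGB1 had an interaction of 0.83 (SE 0.523), and ICL, which encodes isocitrate lyase, 0.76 (SE 0.562). AT5G05200, the gene that fell in both contrasts, averaged 128 in vrn2-5 prt6-1, 128 in prt6-1, 753 in vrn2-5 and 784 in Col-0, and had the narrowest interval of the 26, 0.05 with bounds of -0.30 and 0.41.

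**Figure D3:**
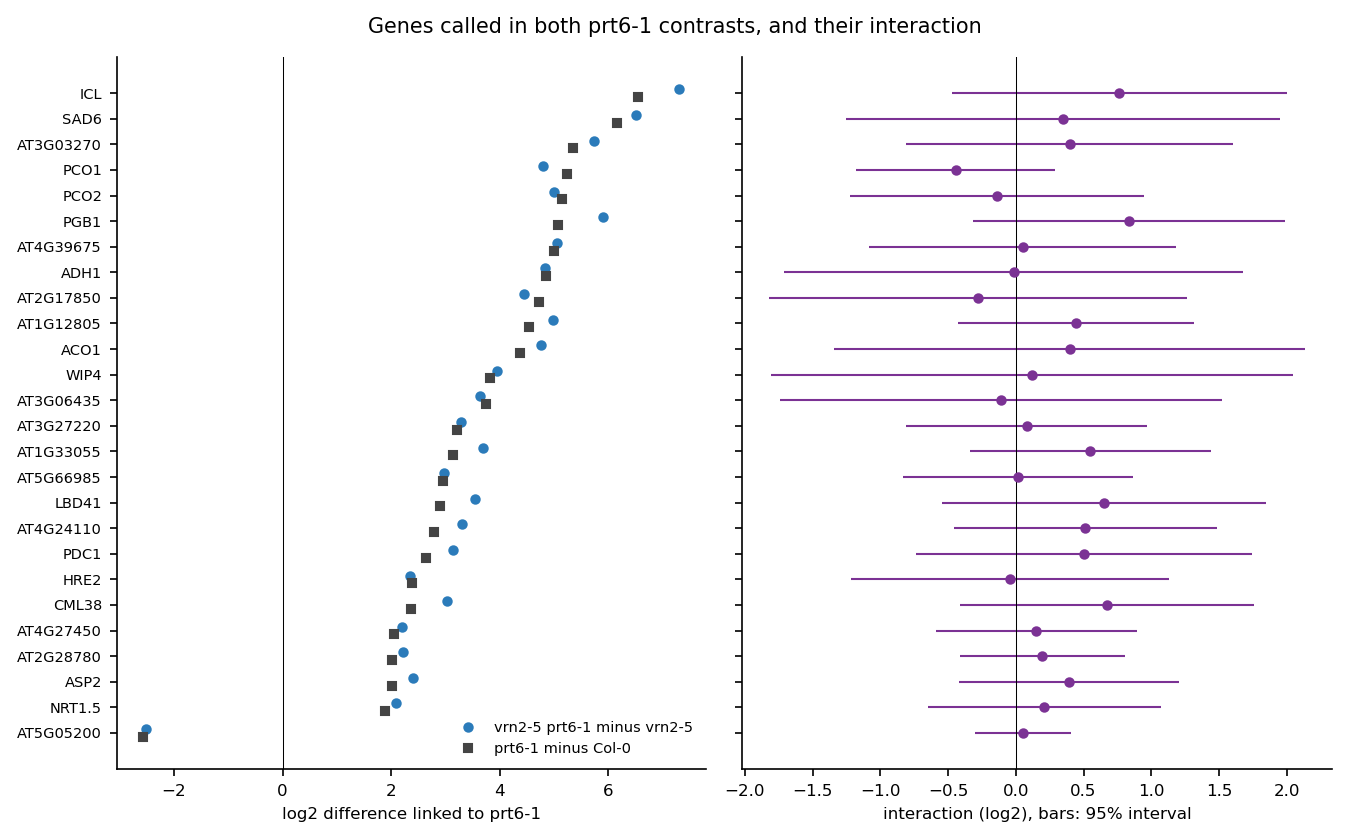
The 26 genes called in both prt6-1 contrasts, with the 2 log2 differences on the left and the interaction with its 95% interval on the right. All 26 intervals hold 0, and the largest log2 difference between prt6-1 and Col-0 among them is 6.54.

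Of the 24 hypoxia response genes tested, 14 had a positive interaction, the median was 0.19 and 0 reached an unadjusted limma p under 0.05. Of the 24, 11 were called higher in both prt6-1 contrasts, against 0.149% of all genes. The value farthest from 0 was -1.44 (SE 1.62) for SUS4, a sucrose synthase gene, which had 253, 0 and 178 normalized reads in vrn2-5 prt6-1, 103, 192 and 217 in prt6-1, and 0 in every vrn2-5 and Col-0 library. The 0 in vrn2-5 prt6-1 was in its shallow library. The largest positive values after PGB1 were 0.67 for CML38, a calmodulin-like gene (SE 0.492), and 0.65 for LBD41, a transcription factor gene (SE 0.543). The N-degron pathway list of 18 genes was balanced, with 9 positive and a median of 0.02. Its widest members had zeros in shallow libraries: MAP1A, a methionine aminopeptidase, had 135, 0 and 150 normalized reads in vrn2-5 prt6-1, and between 130 and 192 in the other 9 libraries, for an interaction of -1.68 (SE 1.42) that was -0.12 from deep libraries alone.

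Genes induced by PIF transcription factors and shade leaned positive without any member passing. Of 29 tested, 23 were positive (79.3%, against 51.3% of all genes) with a median of 0.27, 0 were called and 0 had an unadjusted limma p under 0.05. The median was 1.06 from libraries numbered 1, 0.08 from those numbered 2 and -0.15 from those numbered 3. SAUR19, a small auxin-up RNA of growth, had 124, 128 and 66.5 normalized reads in vrn2-5 prt6-1, 38.1, 46.2 and 53.6 in prt6-1, 72.4, 55.0 and 63.7 in vrn2-5, and 71.2, 31.9 and 45.0 in Col-0, for an interaction of 0.69 (SE 0.446). Its vrn2-5 prt6-1 libraries numbered 1 and 2 were high, and the one numbered 3 was within the range of the vrn2-5 and Col-0 libraries. SAUR21 had an interaction of 0.88 (SE 0.706) and HAT3, a homeodomain gene of shade responses, 0.48 (SE 0.418).

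Early auxin response genes, some of which stand in the PIF list too, behaved alike: 14 of 18 were positive with a median of 0.17, and the sets numbered 1, 2 and 3 gave medians of 0.63, 0.34 and -0.26. IAA19, an auxin repressor gene, averaged 126 ± 52.1 normalized reads in vrn2-5 prt6-1, 51.5 ± 46.5 in prt6-1, 75.7 ± 10.9 in vrn2-5 and 43.8 ± 19.1 in Col-0 (SD, n = 3 each), with an interaction of 0.67 (SE 0.721). The gibberellin and brassinosteroid list held 21 tested genes with a median of 0.08, of which GA20OX1 alone had an unadjusted limma p under 0.05. Among 19 cell wall loosening genes the median was 0.01, and XTH19, a xyloglucan transglucosylase, was the only one with an unadjusted limma p under 0.05. It had 85.5, 91.7 and 82.0 normalized reads in vrn2-5 prt6-1, 53.4, 67.2 and 98.7 in prt6-1, 37.0, 45.0 and 43.6 in vrn2-5, and 48.7, 74.4 and 64.7 in Col-0, for an interaction of 0.78 (SE 0.34).

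Polycomb genes did not move together. Of 18 machinery genes, 7 were positive with a median of -0.13 and 0 called. LHP1, which binds H3K27me3, had 121, 13.8 and 104 normalized reads in vrn2-5 prt6-1, 118, 119 and 108 in prt6-1, 139, 130 and 221 in vrn2-5, and 127, 17.7 and 141 in Col-0. The replicates numbered 2 of vrn2-5 prt6-1 and Col-0, both shallow, were low, and the interaction of -2.02 (SE 1.102) became 0.01 from deep libraries alone. Among 7 tested developmental Polycomb targets, 3 were positive, and the meristem gene STM had an interaction of -0.80 (SE 0.425). STM had 48.5, 18.3 and 43.8 in vrn2-5 prt6-1, below 76.3, 61.4 and 56.6 in prt6-1, 63.4, 60.0 and 50.3 in vrn2-5, and 63.7, 60.2 and 51.7 in Col-0.

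With all libraries, photosynthesis genes had a narrow range of interactions, from -0.48 to 0.13, a median of -0.06 and 6 of 22 positive. Their median was -0.82 from deep libraries alone and 0.25 from shallow ones alone. The 9 tested root tissue markers had a median of 0.09. The summed level of their 15 members in the table was 1170 to 1541 normalized reads in vrn2-5 prt6-1 and 1233 to 1434 in prt6-1, against 623 to 908 in vrn2-5 and 682 to 1041 in Col-0, and its part in any result was not tested. Whole seedlings mix tissues, so fewer cells of a type and less RNA per cell cannot be told apart. The other lists had medians of 0.11 (21 light receptors and PIFs), 0.10 (5 anthocyanin genes), -0.05 (18 clock genes), -0.03 (11 salicylate defence genes), 0.19 (17 abscisic acid and cold genes), -0.25 (5 heat shock genes) and -0.13 (7 senescence markers). In each of these lists the deep and the shallow libraries alone gave medians of opposite sign. Deep and shallow medians were -1.94 and 0.89 for anthocyanin genes, and 1.05 and -0.51 for abscisic acid and cold genes. Deep libraries carry different replicate numbers in each genotype, so depth is mixed with replicate number in all these medians. Relative to the Col-0 mean, anthocyanin genes averaged -1.21 to -0.92 log2 units in libraries numbered 3 and 0.28 to 0.82 in the others. Libraries numbered 1, 2 and 3 taken alone gave anthocyanin medians of 0.01, -0.03 and 0.03, and photosynthesis medians of -0.34, -0.04 and 0.21. None of the 17 lists with tested members held a called gene, and 0 of 12 seed maturation genes are in the table.

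**Figure D4:**
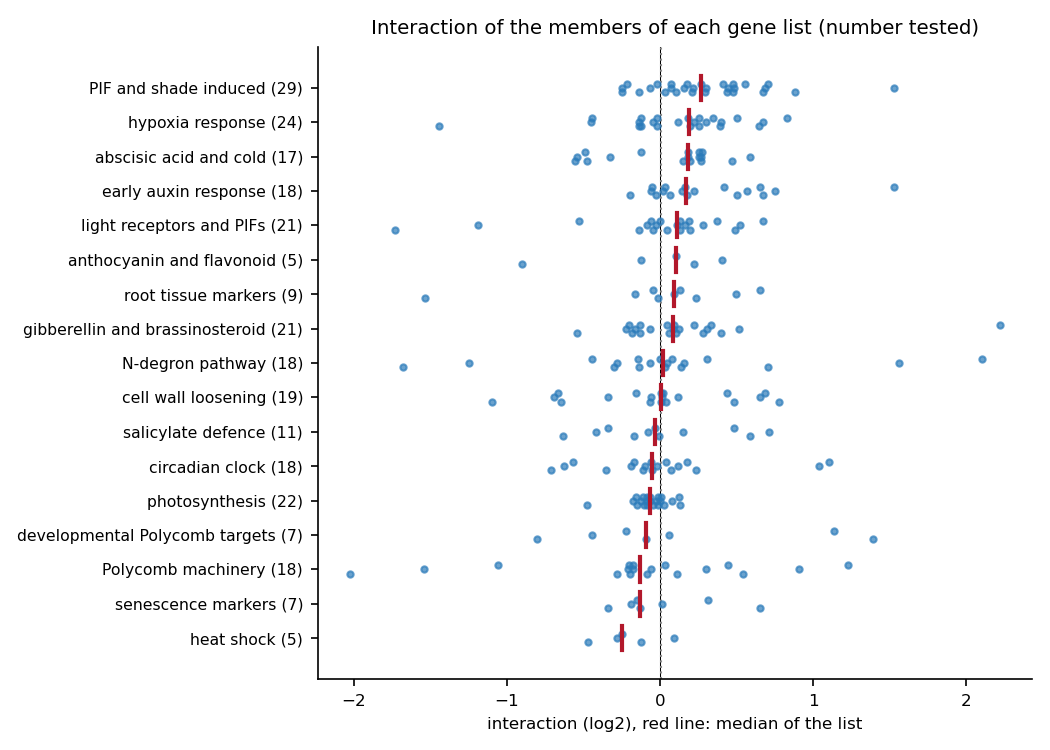
Interaction on the log2 scale of every tested member of 17 gene lists, with a red line at each list's median and the number tested in brackets. Medians run from -0.25 (heat shock) to 0.27 (PIF and shade induced), and the spread within each list exceeds the distance of its median from 0.

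Genes apart in seedlings, other than MRD1, which was not analysed there, were looked up in rosettes, which are separate plants in which vrn2-5 pif4-2 (2 libraries) can be set against pif4-2 (2 libraries). edgeR's quasi-likelihood test called 0 of 18561 genes there, with 441 at an unadjusted p under 0.05 (2.38%), at depths between 15912781 and 26322823 reads. AT3G29633 had 15.1 and 11.1 CPM (counts scaled to a common library total) in vrn2-5 pif4-2, against 0.268 and 0.0408 in pif4-2. QQS had 33.8 and 58.9 in vrn2-5 pif4-2, against 0.939 and 1.80 in pif4-2. Both were thus higher beside vrn2-5, as in vrn2-5 seedlings against Col-0, with log2 differences of 6.39 and 5.13.

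Of the genes low in vrn2-5 seedlings, AT1G03220 and PTR1 were also low beside vrn2-5 in rosettes. AT1G03220 had 17.3 and 14.4 CPM in vrn2-5 pif4-2, against 52.9 and 47.4 in pif4-2 (log2 difference -1.65). PTR1 had 6.41 and 1.71 in vrn2-5 pif4-2, against 68.8 and 67.3 in pif4-2 (log2 difference -4.14). The vrn2-5 pif4-2 libraries did not overlap pif4-2 for these genes, although neither gene passed the adjusted threshold of edgeR (adjusted p = 0.945 for each). AT1G22870 and AT1G03230 differed by -0.08 and -0.21 on the log2 scale, CRK42 by -0.28 and AT3G18535 by -0.17. HTA8 and AT2G04170, whose seedling means were lowest in vrn2-5, differed by 0.64 and 0.57, in the other direction. AN3, highest in vrn2-5 seedlings, differed by -0.05. AT5G24240, which was not tested in rosettes, had 0 and 2.96 CPM in vrn2-5 pif4-2, against 0.223 and 0.286 in pif4-2.

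**Figure D5:**
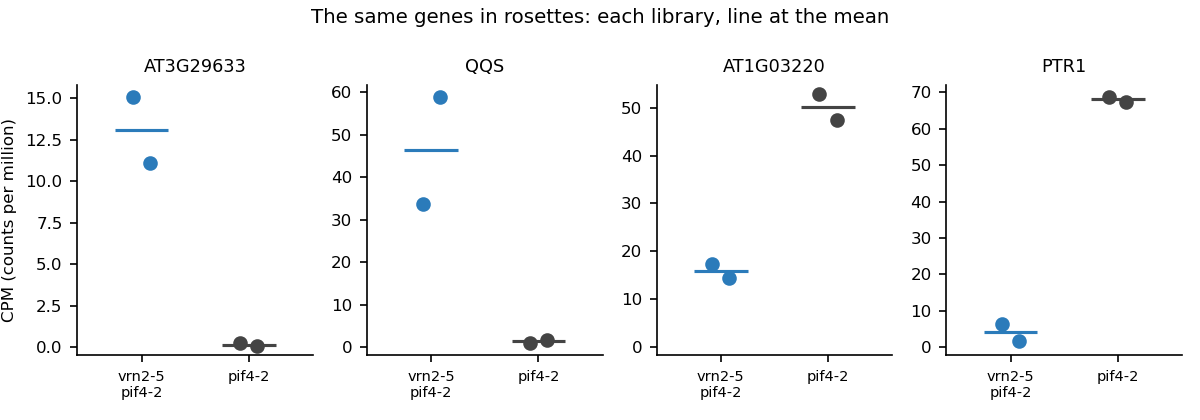
Level in CPM in each of the 4 rosette libraries, vrn2-5 pif4-2 on the left and pif4-2 on the right, with a line at the mean. AT3G29633 and QQS are higher and AT1G03220 and PTR1 lower in both vrn2-5 pif4-2 libraries, and vertical scales differ between panels.

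Neighbouring genes were read from RefSeq's gene order. HEI10, a meiotic crossover gene and the first tested gene after MRD1, averaged 6.41 ± 5.68 normalized reads in vrn2-5 prt6-1, 15.03 ± 10.2 in prt6-1, 5.80 ± 2.93 in vrn2-5 and 63.3 ± 28.9 in Col-0 (SD, n = 3 each). Col-0 was the highest genotype there too, and the interaction was 1.72 (SE 0.79, 95% interval -0.02 to 3.47). MSL4, the first tested gene before MRD1, averaged 32.4, 34.6, 26.7 and 28.3 in vrn2-5 prt6-1, prt6-1, vrn2-5 and Col-0, with an interaction of -0.02 (SE 0.467). Without strand in the sources used here, reads of overlapping genes cannot be told apart.

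Chromatin lists of the same series were compared by position, counting any overlap with a gene or the 1000 bases upstream. Of the 20 genes with coordinates among those called by any tool or smallest in p in either direction, 0 lay under a VRN2-YFP peak in at least 2 of the 3 lists, against 3.43% of all genes tested. An H3K27me3 region stood in at least 2 of the 3 tables at 9 of the 20 (45.0%), against 22.8% of all genes and 26.7% of the 217 genes with an unadjusted p under 0.05 and coordinates. AT3G29633 had a region in all 3 tables, with ratios of 3.32, 1.70 and 1.48 in the authors' deposited table, read as vrn2-5 over Col-0 from its title. QQS had ratios of 1.22 and 0.798 in the authors' deposited table in 2 replicates, which differ in direction. AT1G03220, AT1G03230, PTR1 and AT1G22870 had no region in any table, and the interval between the neighbours of MRD1 (TAIR10 chromosome 1, 19961828 to 19963266) had 1 in 1 table.

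Leaving out single libraries called 9 genes that limma did not call with all libraries. QQS and AT3G29633, which DESeq2 called, are 2 of them, and the other 7 were at 0 in both shallow libraries of the genotype whose deep library was left out. WEB1, which acts in chloroplast movement, is an example: both shallow vrn2-5 libraries were at 0 where the deep vrn2-5 library predicted 89.7 and 134 reads. It was called without vrn2-5 replicate 1 (limma adjusted p = 2.01e-05), and with all libraries its interaction was 4.098 (SE 1.88). RWA1 was at 0 in both shallow Col-0 libraries, where 36.3 and 38.5 reads were predicted, and was called without Col-0 replicate 3. These genes were chosen after their values were seen, and the shallow zeros move with them.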

How the data were processed

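Seedling values deposited by the authors are a normalized signal. Dividing each library by its smallest step turned 100% of them into whole reads at a tolerance of 0.01, so each library had been scaled by a single factor. Submitters' processing notes name Bowtie, DESeq2 and TAIR10 for RNA, and BWA, MACS2, MACS3 and SICER for immunoprecipitations, with no versions. Rosette values deposited by the authors are raw counts, listed with gene coordinates. The H3K27me3 tables deposited by the authors give a ratio and p-values (false discovery rates) per region, and the VRN2-YFP peak lists deposited by the authors give a fold and a score per peak.

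The main test was limma 3.58.1 (R 4.3.3, intensity trend) on log2(value + 5) of the 12 libraries, with a term for genotype and no other. It covered 16820 of 18480 genes, those averaging 10 or more, with Benjamini-Hochberg adjustment at 0.05. The pseudocount understates changes of low genes. Recovered reads were also tested with edgeR 4.0.16 and DESeq2 1.42.0, and rosette counts with edgeR.

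Genes named were those called by any of the 3 tools, the 10 smallest p in each direction, extremes among genes called in a component contrast, VRN2, PRT6, and 2 or 4 members per list, the smaller number for lists of less bearing on the alleles being settled later. Members and lists were chosen with earlier results of these data known. Not all named genes are described above. AT4G32790, AT2G40960, CLE17, Cpn60alpha2, AT1G45207 and ZIP4 were among the smallest p for a negative interaction. The largest of these in size was -4.66 (SE 1.32) for AT4G32790, which was at 0 in the shallow vrn2-5 prt6-1 library. Symbols came from RefSeq (TAIR10.1), which matched 18416 of 18480 genes.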

Additional observations from a re-analysis of the deposited data

Results flagged for a closer look

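MRD1 differed between backgrounds by the test of the difference itself: the vrn2-5 difference was 0.75 with prt6-1 and -5.43 without it, an interaction of 6.18 on the log2 scale (limma adjusted p = 0.00895). Its 3 Col-0 libraries lay above the other 9. In prt6-1 the gene was already at 0, 1.64 and 1.83 normalized reads, so a further fall with vrn2-5 could not be measured there. A difference between the Col-0 plants and the other lines cannot be told apart from a dependence of one allele on the other.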

How the results depend on the processing

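The count of called genes was 1 and moved to 0 with edgeR, 6 with DESeq2, 0 with a mean of at least 50, 2 with array weights and 0 with replicates 1 and 2 only, the last chosen after seeing the data; leaving out 1 library gave 0 to 5. With pseudocount 1 the count was also 1, but the gene called was not MRD1 and had a negative interaction. MRD1 lost its call with edgeR (9.81), pseudocount 1 (9.06), a mean of at least 50 (6.18, where few-read genes leave the fit) and replicates 1 and 2 only (6.20), and single libraries left out gave 5.74 to 6.55. The cause was not tested. VRN2-YFP peaks at the 20 named genes numbered 2 with a peak in at least 1 list and 0 in the reported count. Of 68 named genes, 61 kept 1 sign in every setting. Sign changes, all at uncalled genes, were PRR9 -0.11 with replicates 1 and 2 only, IAA14 -0.31 and CHI -0.13 with array weights, and, over single libraries left out, WRKY53 (-0.00847 to 1.01), ORE1 (-0.00981 to 0.59), PRT6 (-0.12 to 1.87), LHCA2 (-0.31 to 0.044) and CHI (-0.26 to 0.69). Replicate numbers were not taken as pairs: 11 of 18 same-numbered pairs of libraries correlated above 0.1 (from -0.22 to 0.56). The pairs numbered 3 ran from 0.29 to 0.56, those numbered 1 from -0.22 to 0.26 and those numbered 2 from -0.22 to 0.22. Libraries numbered 3 thus shared a shift across genotypes, which the main fit leaves in its residual spread. With the replicate block MRD1 remained at 6.18 (limma adjusted p = 0.0328) and the count at 1. Genes with an unadjusted limma p under 0.05 rose from 225 to 355 with that block, and to 383 with a term for replicate 3. The median SE went from 0.402 to 0.325 in both fits. The median 95% half-width of 0.89 log2 units limits what could be seen in these libraries. With a term for depth class the median SE was 0.399. What sets the width was not tested.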
